A study of Mus musculus with 6 samples.

Results

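The genes described here are 33 autophagy and lysosome genes, chosen by name from a fixed list and looked up by symbol among the 24537 rows of the deposited expression table. All 33 were found, 24 of them genes of the autophagy machinery and 9 genes of the lysosome, and all 33 were among the 13211 genes tested. The RNA came from regulatory T cells (Tregs) of the mouse colon after colitis provoked with TNBS, a hapten that drives a T cell inflammation of the bowel wall. The 6 libraries carry the genotype labels REV-ERB KO (knockout, 3 libraries) and WT (wild type, 3 libraries). Both groups had the same treatment, 150 µl of a 1% TNBS solution on the skin followed after 7 days by 100 µl of a 2.5% solution through the rectum. The sources used here do not give the strain, the age, the cells in which the gene was removed, the deleted exons or how the cells were sorted. They also do not say whether each library came from its own animal, so the spread between libraries may be technical.

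Autophagy encloses part of the cytoplasm in a double membrane and delivers it to the lysosome, where acid hydrolases break it down. A kinase complex around ULK1 starts the process, a lipid kinase complex around Beclin 1 marks the site, and conjugation enzymes attach proteins of the ATG8 family to the growing membrane, where cargo receptors bind them. The transcription factor TFEB switches on many lysosome and autophagy genes. In Tregs, autophagy is known to be needed for lineage stability and survival, and in skeletal muscle REV-ERBα, a repressor of the circadian clock, is known to hold autophagy genes down.

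Values are in TPM, a transcript level scaled for transcript length and library, and differences are labelled KO minus labelled WT on the log2(TPM + 1) scale, from limma. The libraries labelled KO held 12641850 to 15890630 recovered reads and those labelled WT 9794480 to 12122575. Nr1d1, which encodes REV-ERBα, had 169.2, 154.3 and 141.4 TPM under the KO label and 66.3, 104.0 and 88.2 TPM under the WT label, against the direction of a knockout, although a whole-transcript value does not check deleted exons. Nr1d2, which encodes REV-ERBβ, averaged 68.8 ± 18.2 (SD, n = 3) against 61.0 ± 10.04 TPM (SD, n = 3). Differences are given by label for that reason. The 8 markers of Tregs and T cells were detected in every library, summing to 3737 to 4115 TPM under the KO label and 4983 to 5661 TPM under the WT label, a sum to which Ctla4 gave the most (2091 ± 223.1 against 2743 ± 126.3 TPM). Foxp3 was at 171.4 to 235.0 against 451.4 to 663.7 TPM, the largest difference of the list, while Il2ra (-0.10) and Ikzf2 (-0.07) had overlapping libraries. All 8 markers had differences below 0, where 50.5% of all genes did. Of the 8, 4 were lower at an unadjusted p under 0.05 in limma, where 7.86% of all genes were. The 17 epithelial markers summed to 3643 to 6834 TPM in the libraries labelled KO and 2303 to 3451 TPM in those labelled WT. In bulk RNA, fewer cells of a type and less RNA per cell cannot be told apart.

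No autophagy or lysosome gene passed an adjusted p of 0.05 in limma, and neither did any other gene tested (0.0% of 13211, against 2068 at an unadjusted p under 0.05). The 24 autophagy genes lay slightly lower in the libraries labelled KO, with a median difference of -0.12 and 17 of 24 below 0, and the 9 lysosome genes slightly higher, with a median of 0.13 and 8 of 9 above 0. Over all genes tested the median was -0.003, with 50.5% below 0 and 49.5% above. At an unadjusted p under 0.05, 2 of the 24 autophagy genes were lower, or 8.33%, where 7.86% of all genes were lower, and 0 were higher, where 7.8% of all genes were higher. None of the 9 lysosome genes passed that threshold in either direction. The libraries labelled KO and WT did not overlap for 5 autophagy genes (Ulk1, Rb1cc1, Atg7, Atg16l1 and Bnip3l) and for 1 lysosome gene (Mcoln1), all lower in the libraries labelled KO. These are 6 of 33 genes, or 18.2%, where 21.0% of all genes did not overlap in either direction. The 5 are 20.8% of the autophagy genes, where 10.4% of all genes did not overlap in that direction. No autophagy or lysosome gene was higher in all 3 libraries labelled KO than in all 3 labelled WT, where 10.6% of all genes were. The number of autophagy genes lower at an unadjusted p under 0.05 was 4 without the library labelled WT 1, 3 without KO 3, and 1 without KO 1, KO 2 or WT 3. Of the autophagy genes 1 was higher without KO 3 or WT 1. Of the lysosome genes, 1 was lower without WT 1, 2 were higher without KO 3 and 1 without WT 3. The count over all genes tested at that p, in either direction, moved as well. It was 2632 without WT 1 and 2958 without KO 3, against 2068 with all 6 libraries. Without KO 1, KO 2 and WT 3 it was 1478, 1188 and 1410. The autophagy median moved to -0.066 without the library labelled WT 3. For the lysosome genes it was 0.033 without the library labelled KO 2, 0.208 without KO 1 and 0.245 without KO 3.

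**Figure D1:**
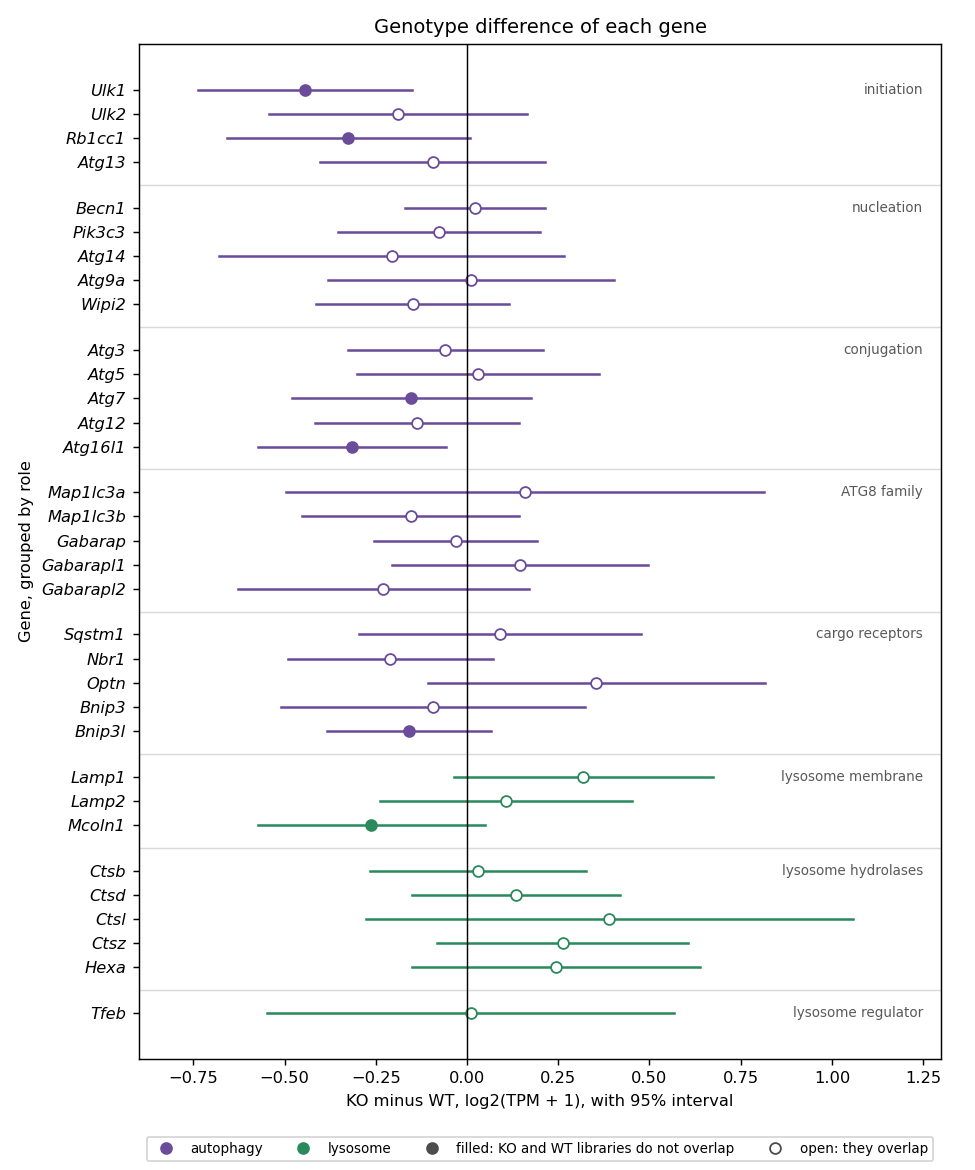
Difference of each of the 33 genes, labelled KO minus labelled WT on the log2(TPM + 1) scale, with the 95% interval from limma (n = 3 libraries per label). Points for 6 genes are filled because their libraries did not overlap, all of them left of 0, and the intervals of Ulk1 and Atg16l1 alone leave out 0.

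Promoters are shown for the gene with the lowest p, Ulk1, and for 3 of the genes that carry the letters CACGTG. RefSeq promoters on GRCm38.p6, the assembly of mm10, spanning 250 bases before to 50 bases after a start that lies within 500 bases of the start in the table, were found for 24 of the 33 genes, all but Rb1cc1, Becn1, Pik3c3, Atg7, Atg12, Atg16l1, Map1lc3a, Bnip3l and Ctsb. Each is printed 5′ to 3′ on the strand of the gene, with CACGTG (the E-box) and AGGTCA in capitals. Their positions are chr5:110810032-110810331 on the minus strand for Ulk1, chr16:45158579-45158878 on the plus strand for Atg3, chr8:13158911-13159210 on the plus strand for Lamp1 and chr8:3500269-3500568 on the plus strand for Mcoln1.
Ulk1: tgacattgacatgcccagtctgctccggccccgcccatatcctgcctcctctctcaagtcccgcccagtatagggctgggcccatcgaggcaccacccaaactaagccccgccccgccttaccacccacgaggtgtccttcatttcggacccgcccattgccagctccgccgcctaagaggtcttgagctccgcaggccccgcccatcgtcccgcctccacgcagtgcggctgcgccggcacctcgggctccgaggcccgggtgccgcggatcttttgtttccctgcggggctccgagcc
Atg3: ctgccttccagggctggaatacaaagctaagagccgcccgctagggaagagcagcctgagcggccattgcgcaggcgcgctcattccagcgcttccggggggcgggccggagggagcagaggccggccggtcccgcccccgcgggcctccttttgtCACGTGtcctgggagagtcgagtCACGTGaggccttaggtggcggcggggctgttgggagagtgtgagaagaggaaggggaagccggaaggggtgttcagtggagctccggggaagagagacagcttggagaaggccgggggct
Lamp1: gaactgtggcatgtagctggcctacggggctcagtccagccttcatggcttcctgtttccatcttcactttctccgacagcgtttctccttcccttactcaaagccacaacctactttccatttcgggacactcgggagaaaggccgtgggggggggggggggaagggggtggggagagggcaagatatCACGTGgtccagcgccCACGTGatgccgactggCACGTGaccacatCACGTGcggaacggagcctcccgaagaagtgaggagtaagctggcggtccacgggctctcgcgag
Mcoln1: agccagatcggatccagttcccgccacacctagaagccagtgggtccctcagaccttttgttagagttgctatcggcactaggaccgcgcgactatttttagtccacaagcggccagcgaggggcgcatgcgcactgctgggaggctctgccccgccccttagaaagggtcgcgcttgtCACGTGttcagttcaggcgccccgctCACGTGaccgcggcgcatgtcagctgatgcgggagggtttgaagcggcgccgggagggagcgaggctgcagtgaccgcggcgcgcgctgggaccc

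The window of Ulk1 held neither CACGTG nor AGGTCA. Lamp1 held CACGTG 4 times, first bases at -61, -45, -28 and -15 from the start. Mcoln1 held it at -71 and -45, and Atg3 at -94 and -71. In Mcoln1 and Atg3 the copy nearest the start lies inside TCACGTGA, the core of the element that TFEB is known to bind. CACGTG, read on both strands and counted also where it is part of TCACGTGA, was found in 8 of the 24 windows (Atg14, Atg3, Atg5, Bnip3, Lamp1, Mcoln1, Ctsd and Ctsl), or 33.3%. These were 4 of the 16 windows of autophagy genes and 4 of the 8 windows of lysosome genes. The same letters were in 10.05% of 9613 windows matched in the same way to tested genes and in 7.15% of all 32851 windows in the table. TCACGTGA was found in 3 of 24 (Atg3, Mcoln1 and Ctsd), or 12.5%, against 2.03% of the windows of tested genes. AGGTCA, the half-site that REV-ERB and many other nuclear receptors bind, was found in 4 of 24 (Ulk2, Gabarapl2, Nbr1 and Ctsd), or 16.7%, against 12.1% of the windows of tested genes. The longer TAGGTCA was found in 0 of 24 windows, against 1.97%. These matches describe letters only. Of the genes with TCACGTGA, Mcoln1 was lower in every library labelled KO, while for Atg3 and Ctsd the libraries of both labels overlapped.

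All 4 genes of the initiation complex had differences below 0, where 50.5% of all genes did. Ulk1 (NM_009469, mm10 chromosome 5, 110784489 to 110810081, minus strand), the kinase that starts autophagy, had 38.0, 42.1 and 40.2 TPM in KO 1, KO 2 and KO 3 and 46.9, 61.6 and 57.2 TPM in WT 1, WT 2 and WT 3. Every library labelled KO was below every library labelled WT. The mean in the libraries labelled KO was 0.726 times that in those labelled WT, a difference of -0.44 (SE 0.126, 95% interval -0.74 to -0.15, unadjusted p = 0.00828, limma adjusted p = 0.199). An exact two-sided permutation test gave p = 0.1, the smallest that 3 against 3 libraries allow. Rb1cc1, which encodes the scaffold FIP200 of the same complex, had 20.4, 19.8 and 18.2 TPM under the KO label and 22.3, 29.3 and 22.9 TPM under the WT label. Its groups did not overlap either, but the distance between the nearest libraries was small (-0.33, SE 0.144, limma adjusted p = 0.325). Ulk2, the related kinase, averaged 12.7 ± 0.415 (SD, n = 3) against 14.7 ± 2.07 TPM (SD, n = 3), and Atg13, the regulatory subunit, 29.1 ± 4.10 against 31.0 ± 1.87 TPM. The libraries of both labels overlapped for these 2 genes. Ulk1 kept an unadjusted p under 0.05 under all 15 other settings and passed the adjusted threshold under 0 of them (limma adjusted p between 0.107 and 0.588).

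**Figure D2:**
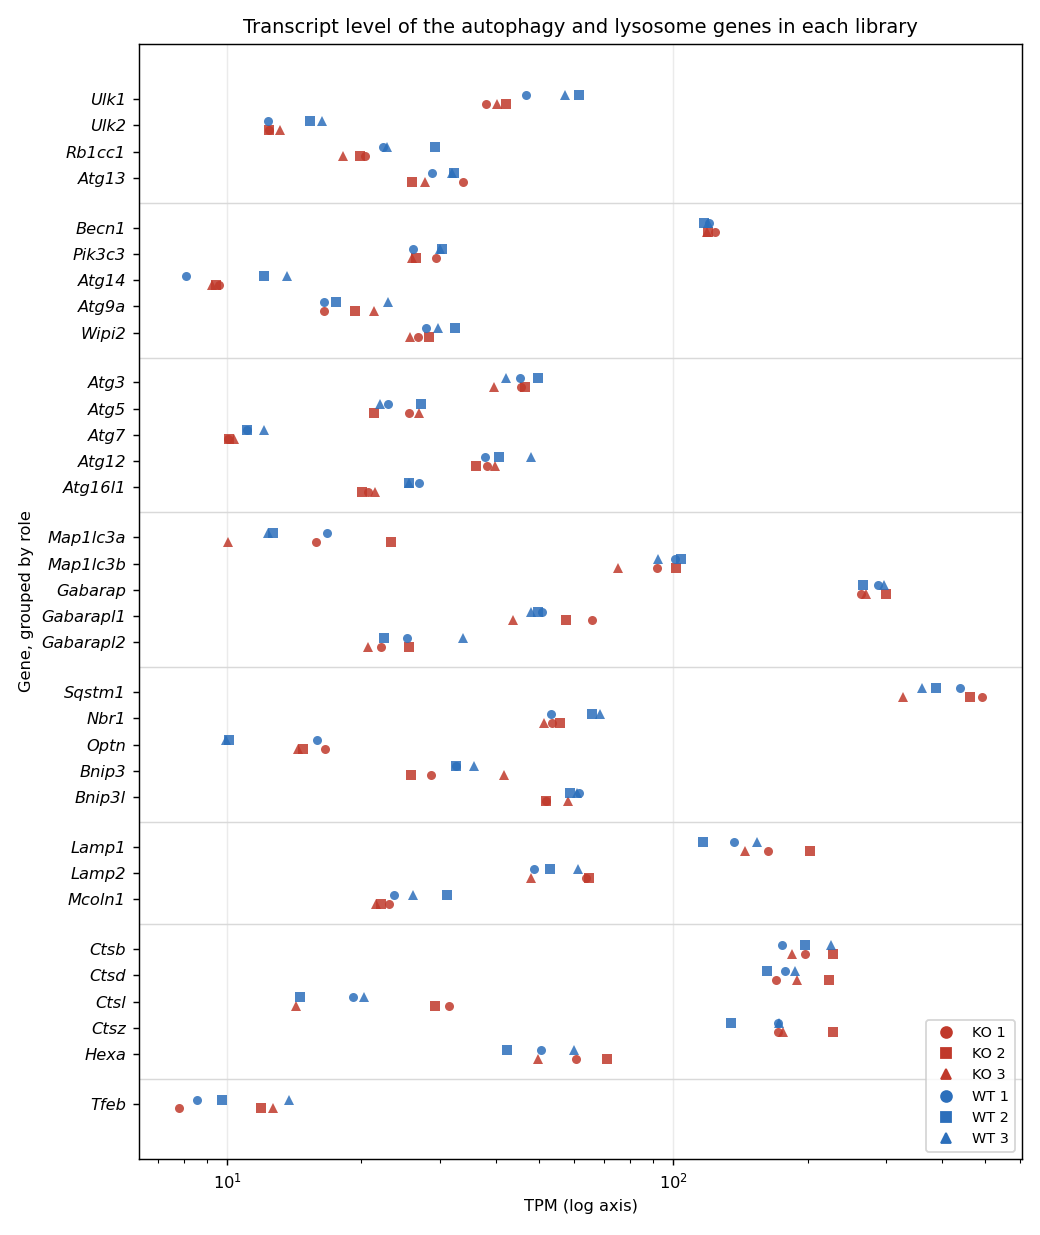
TPM of the 33 genes in each of the 6 libraries on a log axis, grouped by role from initiation at the top to the regulator Tfeb at the bottom, with the labelled KO in red and the labelled WT in blue. Red and blue points do not overlap for Ulk1, Rb1cc1, Atg7, Atg16l1, Bnip3l and Mcoln1, coincide for Becn1, and mix for most other genes.

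The genes that mark the site of the new membrane and supply its lipids differed less. Becn1, which encodes Beclin 1, had 124.0, 119.6 and 119.1 TPM under the KO label and 120.5, 117.0 and 119.6 TPM under the WT label. Its coefficient of variation was 2.25% under the KO label and 1.52% under the WT label, the latter the lowest of the 33 genes, and its difference of 0.02 had a 95% interval of -0.17 to 0.21. Its lipid kinase partner Pik3c3 averaged 27.3 ± 1.89 against 28.8 ± 2.32 TPM. Atg14, which directs that kinase to autophagy and had the lowest level of the 33 genes, averaged 9.42 ± 0.180 against 11.3 ± 2.85 TPM. The lipid carrier Atg9a lay at 19.0 TPM under both labels, and Wipi2, which binds the lipid mark, averaged 26.98 ± 1.32 against 30.04 ± 2.23 TPM. The libraries of both labels overlapped for all 5 genes of this group.

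Of the 5 conjugation genes, 4 had differences below 0, where 50.5% of all genes did. For 2 the libraries did not overlap and KO was lower, as for 10.4% of all genes. Atg16l1 (NM_001205392, mm10 chromosome 1, 87756011 to 87792428, plus strand), which places the conjugation machinery on the membrane and is known as a gene linked to Crohn's disease, had 20.7, 20.1 and 21.4 TPM under the KO label and 26.97, 25.5 and 25.5 TPM under the WT label. Both groups were tight, with coefficients of variation of 3.33% and 3.22%, and lay apart. The difference was -0.31 (SE 0.111, 95% interval -0.57 to -0.057, unadjusted p = 0.0228, limma adjusted p = 0.252), and the exact permutation p was 0.1. Its unadjusted p stayed under 0.05 under 10 of 15 other settings. Among the 6 fits with 1 library left out, that p rose above 0.05 without KO 1, KO 2, WT 1 or WT 3, up to 0.0711 without KO 2. Atg7, the activating enzyme of both conjugation systems, had 10.02, 10.1 and 10.4 TPM under the KO label and 11.1, 11.1 and 12.1 TPM under the WT label. Its groups were apart by less than 1 TPM (-0.15, SE 0.141, limma adjusted p = 0.627). Atg5 averaged 24.6 ± 2.90 against 24.05 ± 2.79 TPM, its conjugation partner Atg12 38.1 ± 1.86 against 42.2 ± 5.23 TPM, and the conjugating enzyme Atg3 43.9 ± 3.69 against 45.8 ± 3.80 TPM. For these 3 genes the libraries overlapped.

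None of the 5 genes of the ATG8 family, whose products coat the membrane, separated the labels. Gabarap was the highest of them at 277.7 ± 19.3 (SD, n = 3) against 283.6 ± 15.2 TPM (SD, n = 3), and made up 60.3 ± 3.68% of the TPM of the family in the libraries labelled KO and 59.9 ± 1.41% in those labelled WT. Map1lc3b, which encodes LC3B, the usual marker protein of autophagosomes, had 91.96, 101.4 and 75.05 TPM under the KO label and 101.0, 103.9 and 92.3 TPM under the WT label. The library labelled KO 3 was the lowest and the others intermixed (-0.15, SE 0.128, 95% interval -0.45 to 0.14, limma adjusted p = 0.590). Map1lc3a averaged 16.4 ± 6.67 against 13.9 ± 2.47 TPM and had the widest spread of all 33 genes within the libraries labelled KO, a coefficient of variation of 40.7%. Gabarapl1 averaged 55.6 ± 11.2 against 49.5 ± 1.32 TPM, and Gabarapl2 22.8 ± 2.48 against 27.2 ± 5.93 TPM.

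Cargo receptors went in both directions. Sqstm1, which encodes p62 and was the highest of the 33 genes, above 98.5% of all tested genes, had 492.9, 461.8 and 327.0 TPM under the KO label and 440.0, 388.8 and 360.7 TPM under the WT label. The lowest and the 2 highest values were all in libraries labelled KO (0.09, SE 0.167, limma adjusted p = 0.822). Bnip3l, a receptor for mitochondria also called NIX, had 51.7, 51.97 and 58.2 TPM under the KO label and 61.4, 58.6 and 60.97 TPM under the WT label. Its libraries did not overlap, but KO 3 and WT 2 nearly met (-0.16, SE 0.098, limma adjusted p = 0.459). Its relative Bnip3 averaged 32.1 ± 8.55 against 33.6 ± 1.81 TPM, and Nbr1, a receptor that acts beside p62, 53.5 ± 2.33 against 62.4 ± 8.16 TPM. Optn, a receptor for bacteria and damaged mitochondria, averaged 15.3 ± 1.15 against 11.98 ± 3.39 TPM, the largest positive difference of the autophagy genes (0.35, 95% interval -0.11 to 0.82, limma adjusted p = 0.426), with the library labelled WT 1 inside the range of the libraries labelled KO.

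The 5 lysosomal hydrolases all had differences above 0, where 49.5% of all genes did, and the libraries overlapped for each of them. The protease gene Ctsd averaged 194.2 ± 26.98 (SD, n = 3) against 176.2 ± 12.8 TPM (SD, n = 3), Ctsb 203.4 ± 22.4 against 199.5 ± 25.2 TPM and Ctsz 192.0 ± 31.2 against 159.6 ± 21.4 TPM. Ctsl averaged 24.98 ± 9.31 against 17.98 ± 3.01 TPM, with the library labelled KO 3, at 14.3 TPM, the lowest of all 6. Hexa, which encodes a subunit of the enzyme that degrades gangliosides, averaged 60.5 ± 10.6 against 50.95 ± 8.86 TPM. The library labelled KO 2 had the highest value for 4 of the 5 hydrolases and the library labelled WT 2 the lowest for 3 of 5. Ctsb overlaps Fdft1 (23.1 TPM on average) by 773 bases on the opposite strand, and Ctsz overlaps Nelfcd by 9 bases, so a part of their reads is uncertain where strand was not used in counting.

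The 3 lysosomal membrane genes differed among themselves. Lamp1 (NM_010684, mm10 chromosome 8, 13159161 to 13175338, plus strand), the main glycoprotein of the lysosomal membrane, had 162.9, 202.6 and 144.9 TPM under the KO label and 137.1, 116.5 and 153.9 TPM under the WT label. Only KO 3 and WT 3 crossed (0.32, SE 0.154, 95% interval -0.037 to 0.67, limma adjusted p = 0.363). Mcoln1 (NM_053177, mm10 chromosome 8, 3500519 to 3515231, plus strand), the calcium channel of the lysosome, had 23.1, 22.1 and 21.5 TPM under the KO label and 23.7, 31.2 and 26.1 TPM under the WT label. The groups did not overlap, although KO 1 and WT 1 were close (-0.26, SE 0.135, 95% interval -0.57 to 0.050, limma adjusted p = 0.389). Lamp2, needed for fusion with autophagosomes, averaged 58.8 ± 9.44 against 54.3 ± 6.42 TPM. Tfeb, the regulator, had 7.79, 11.9 and 12.7 TPM under the KO label and 8.56, 9.75 and 13.8 TPM under the WT label, which overlapped throughout (0.01, SE 0.241, 95% interval -0.55 to 0.57).

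Markers of other cells varied beside the lysosome genes. The mean log2(TPM + 1) of the 9 lysosome genes was highest in the library labelled KO 2 (6.28), followed by WT 3 (6.12), KO 1 (6.06), KO 3 (5.92), WT 1 (5.89) and WT 2 (5.84). The mean of 16 markers of macrophages, monocytes and dendritic cells, which are rich in lysosomes, was also highest in KO 2 (5.51), then WT 3 (5.11) and KO 1 (4.93), with the other 3 libraries between 4.66 and 4.68. Of these 16 markers 15 had differences above 0, where 49.5% of all genes did, and 0 passed an unadjusted p of 0.05. Their TPM summed to 959.1 to 1749 in the libraries labelled KO and to 931.6 to 1450 in those labelled WT, and none was at 0 in all libraries. The macrophage gene C1qa, for one, averaged 200.6 ± 75.7 against 173.5 ± 58.4 TPM. The means of the epithelial (7.855), fibroblast (4.652) and endothelial (3.078) lists were highest in KO 2 too. The B cell mean was highest in KO 1 (3.843) and the neutrophil sum in KO 3. All 17 epithelial markers had differences above 0, with a median of 0.94, and none was at 0 in all libraries. Of the 17, 11 were higher at an unadjusted p under 0.05, where 7.8% of all genes were. The part of any of these cell types in the lysosome values was not tested. The 8 neutrophil markers summed to 14.1 to 42.5 against 5.02 to 11.6 TPM. Only 4 were tested, and S100a8 met the filter of 1 TPM in 3 libraries through those labelled KO alone. Counts of calls are therefore not given for this list. Mpo was lower on average under the KO label (0.356 against 0.448 TPM). S100a8 had 1.22, 5.57 and 8.57 TPM under the KO label and was at 0 in the 3 libraries labelled WT. Elane was at 0 in all 6 libraries, and Cxcr2 and Mpo were under 1 TPM in each. The part of neutrophils in the lysosome values was not tested either.

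**Figure D3:**
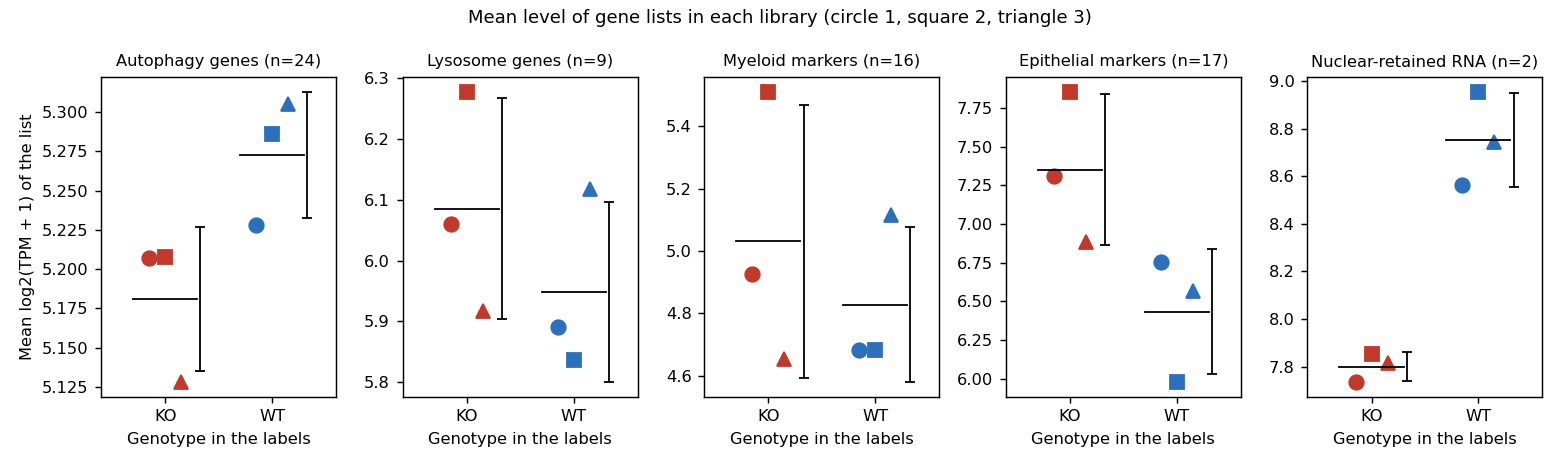
Mean log2(TPM + 1) of the autophagy genes, the lysosome genes and 3 marker lists in each library, each panel with its own vertical scale, where the line is the mean and the bar the SD of 3 libraries. Autophagy means are lower in all 3 libraries labelled KO (5.13 to 5.21) than in those labelled WT (5.23 to 5.31). The summed TPM of these genes, not drawn, overlapped between the labels. The lysosome, myeloid and epithelial panels share the library labelled KO 2 at the top.

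The autophagy genes varied beside transcript length, nuclear RNA and T cell markers. The mean log2(TPM + 1) of the autophagy genes was 5.21, 5.21 and 5.13 under the KO label and 5.23, 5.29 and 5.31 under the WT label. Their summed TPM overlapped, at 1553, 1555 and 1352 under the KO label and 1538, 1513 and 1513 under the WT label. For the 8 Treg and T cell markers the mean log2(TPM + 1) was 8.157 to 8.438 under the KO label and 8.538 to 8.815 under the WT label. Malat1 and Neat1, long transcripts kept in the nucleus, were at 288.0 ± 38.9 against 546.3 ± 43.3 TPM and at 172.8 ± 23.0 against 344.0 ± 67.3 TPM, also lower in every library labelled KO. Across all tested genes, the median difference went from 0.07 in the quintile with the shortest transcripts (up to 1380 bases) to -0.09 in the quintile with the longest (from 4438 bases). Across the 33 genes the difference was related to log2 length with a Spearman rho of -0.39 (Pearson r of -0.39), and across the 13211 tested genes with a rho of -0.16. These are descriptions over genes measured in the same 6 libraries. Ulk1 at 5166 bases and Rb1cc1 at 7020 bases are among the longest of the 33. With the length trend taken out of each library, Ulk1 was at -0.38 (unadjusted p = 0.00747), Atg16l1 at -0.30 (unadjusted p = 0.0259), Rb1cc1 at -0.23 and Mcoln1 at -0.29, all in limma, and the autophagy median was -0.11. The parts of nuclear RNA and of T cell RNA were not tested.

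**Figure D4:**
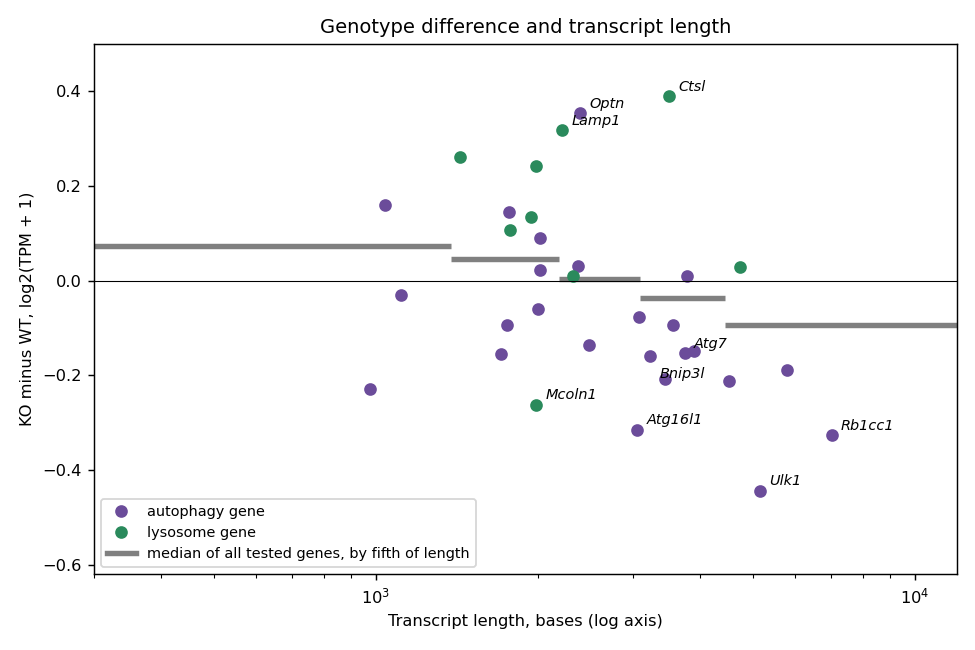
Difference of the 33 genes on the log2(TPM + 1) scale against transcript length on a log axis, with grey bars for the median of all tested genes in each quintile of length. Grey bars step from 0.07 down to -0.09, and Ulk1, Rb1cc1, Atg16l1 and Mcoln1 lie below the bar of their length.

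Other genes of these pathways, 149 symbols in 6 lists of which 145 genes were tested, showed 8 lower (5.52%) and 3 higher at an unadjusted p under 0.05, with a median of -0.006. Of all genes tested 7.86% were lower and 7.8% higher, so neither direction was above that share. Among 22 further genes of the autophagy machinery, 2 were lower (9.09%) and 0 higher. They were Nrbf2, a subunit of the Beclin 1 complex (12.4 ± 0.376 against 17.1 ± 1.30 TPM, -0.43), and Vmp1, a lipid scramblase (60.7 ± 8.01 against 75.7 ± 5.62 TPM, -0.32). Ambra1, a Beclin 1 regulator, was next in order of p at 26.1 ± 4.11 against 32.7 ± 3.20 TPM. Of the 22 genes, 15 had differences below 0 (median -0.10). None of 12 further receptors and mitophagy genes passed. Tbk1, the kinase that activates receptors, averaged 51.2 ± 2.16 against 59.5 ± 6.41 TPM, Calcoco1 23.5 ± 2.04 against 30.3 ± 7.99 TPM and Phb2 131.7 ± 11.6 against 116.6 ± 9.45 TPM.

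The lysosome lists showed no common direction. Of 16 subunits of the proton pump that acidifies the lysosome, 12 had differences above 0 (median 0.05), where 49.5% of all genes did. In limma 0 of them passed an unadjusted p of 0.05, where 7.86% of all genes were lower and 7.8% higher. Atp6v1g1 averaged 80.1 ± 1.76 against 68.02 ± 6.54 TPM, Atp6ap2 51.4 ± 6.40 against 42.04 ± 5.35 TPM and Atp6v0a1 15.8 ± 1.19 against 18.9 ± 2.46 TPM. Among 39 further hydrolases, 1 was higher, the phosphatase Acp5 (148.5 ± 17.5 against 108.4 ± 20.1 TPM, 0.46, limma adjusted p = 0.238), and 0 were lower. Idua, which degrades glycosaminoglycans, averaged 6.75 ± 0.916 against 9.24 ± 1.98 TPM. Among 20 further membrane proteins, Laptm4b (39.7 ± 6.02 against 59.9 ± 6.58 TPM, -0.58) and the cholesterol exporter Npc1 (17.2 ± 1.34 against 22.2 ± 2.73 TPM, -0.35) were lower, and the tetraspanin Cd63 (69.4 ± 20.97 against 43.4 ± 7.34 TPM, 0.64) was higher, with overlapping libraries.

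The upstream regulators included the lowest p of all these pathway genes. Of 36 tested regulators around mTORC1, AMPK, the TFEB family and FoxO, 4 were lower (11.1%, where 7.86% of all genes were) and 1 higher (of all genes, 7.8%) at an unadjusted p under 0.05. Sesn1, a stress sensor that restrains mTORC1, averaged 41.6 ± 6.97 against 69.4 ± 7.03 TPM (-0.73, limma adjusted p = 0.130). Foxo1, a transcription factor that induces autophagy genes and is needed for Treg function, averaged 89.4 ± 7.91 against 124.4 ± 16.4 TPM (-0.47, limma adjusted p = 0.191). Prkab2, a subunit of the energy sensor AMPK, averaged 9.51 ± 1.39 against 14.8 ± 2.20 TPM (-0.59), and Tsc1, an inhibitor of mTORC1, 11.4 ± 1.01 against 15.8 ± 2.55 TPM (-0.44). Lamtor1, which anchors mTORC1 to the lysosome, averaged 66.8 ± 3.23 against 55.2 ± 3.92 TPM (0.27). The libraries labelled KO and WT did not overlap for these 5 genes. They are among 11 of the 36 regulators without overlap, where 21.0% of all genes had none. Of the 11, 7 were lower (19.4% of the 36, where 10.4% of all genes were) and 4 higher (of all genes, 10.6%). None of the 36 passed the adjusted threshold over all genes.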

How the data were processed

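Per the labels' protocols, Trizol RNA went into a kit that marks strand. The authors deposited TPM values, 1 column for each of 6 libraries and 1 row per gene symbol, with 1 RefSeq transcript and its length. The submitters' processing notes name mm10 as build and, without settings, STAR 2.5.3a, HOMER 4.9.1, Trim Galore 0.4.4 and FastQC 0.11.8. The sources used here do not say if strand was used in counting.

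TPM times length, divided by 1 step per library, gave whole reads for 99.99% of values up to 500 reads (tolerance 0.1). The 33 genes had 96 to 10026 reads per library. No sample column was left unused. Genes with at least 1 TPM in at least 3 of 6 libraries were tested with limma 3.58.1 in R 4.3.3, on log2(TPM + 1), two-sided, moderated along a variance trend, with genotype as the only term, and Benjamini-Hochberg adjustment over 13211 genes at 0.05. The fold scale understates changes of low genes. The method was tested on simulated data with changes larger than the difference of any of the 33 genes, and the outcome is not reported here.

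The members and lists were chosen with earlier results of these data known. Values per library are given for genes with an unadjusted p under 0.05, genes whose groups did not overlap, and Ulk1, Becn1, Map1lc3b, Sqstm1, Lamp1 and Tfeb. From each pathway list the 3 genes with the smallest p are named, except 1 gene that is not reported here. Outside this rule, Tsc1, Lamtor1, Malat1, Neat1, C1qa, S100a8, Ctla4, Il2ra, Ikzf2 and the neutrophil markers at or near 0 were chosen after their values were seen. Markers of T, myeloid, neutrophil, B, epithelial, fibroblast and endothelial cells and nuclear RNA were read beside them. The B cell list summed to 540.6 to 2082 TPM in the libraries labelled KO and 716.3 to 1541 in those labelled WT, the fibroblast list to 284.2 to 537.7 against 215.2 to 496.3, and the endothelial list to 50.04 to 68.6 against 38.8 to 54.8. Python 3.11.15 and matplotlib 3.10.9 drew the figures.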

Additional observations from a re-analysis of the deposited data

How the results depend on the processing

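Other settings were a pseudocount of 0.1, no filter, a filter at 5 TPM, quantile normalization, TMM factors, no variance trend, voom on the recovered reads, a replicate block, each library left out, and removal of the length trend, which was chosen after seeing the data. The count of all genes past the adjusted threshold was 0 under each, except 14 without the library labelled WT 1, none of them an autophagy or lysosome gene, so the count ran from 0 to 14 over libraries left out. With 1 library left out, the autophagy genes lower at an unadjusted p under 0.05 numbered 1 to 4 (the 4 without WT 1), those higher 0 to 1, the lysosome genes lower 0 to 1 and higher 0 to 2 (the 2 without KO 3). Over all genes tested, the count at that p ran from 1095 without WT 2 to 2958 without KO 3, against 2068 with all libraries. Voom gave 1 lysosome gene higher. The autophagy median ran from -0.143 to -0.066. With the replicate block 1 autophagy gene was lower in place of 2. No pairing by number was seen (correlations of same-numbered deviations 0.004, -0.219 and -0.041), although so few libraries cannot exclude one. The labels do not say that a number is shared.

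Of the 33 genes, 23 kept their sign under all 15 settings. The 10 that did not had differences of at most 0.159 in size. Becn1 was -0.005 and Tfeb -0.004 without the length trend, Tfeb -0.012 with quantile normalization and Gabarap 0.011 with voom. With 1 library left out, differences ran from -0.08 to 0.148 for Atg9a, -0.115 to 0.01 for Atg3, -0.036 to 0.125 for Atg5, -0.12 to 0.45 for Map1lc3a, -0.087 to 0.007 for Gabarap, -0.024 to 0.271 for Sqstm1, -0.294 to 0.044 for Bnip3, -0.06 to 0.121 for Ctsb and -0.123 to 0.208 for Tfeb. The cause was not tested. Depth limits Map1lc3a most, with 96 to 225 reads per library.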

Other observations

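Some ratios within a library, which do not depend on how libraries are scaled, are given as values with no test, since the pairs of genes were chosen after their levels were seen. The ratio of Ulk1 to Ulk2 was 3.06, 3.38 and 3.06 under the KO label and 3.80, 4.01 and 3.51 under the WT label. The ratio of Lamp1 to Mcoln1 was 7.06, 9.18 and 6.73 under the KO label and 5.78, 3.74 and 5.89 under the WT label. The ratio of Map1lc3b to Map1lc3a averaged 5.88 ± 1.57 (SD, n = 3) against 7.23 ± 1.11 (SD, n = 3). Lysosome genes held 38.6 ± 2.31% of the summed TPM of all 33 genes in the libraries labelled KO and 35.3 ± 2.27% in those labelled WT, with overlapping libraries.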
